A study of Mus musculus with 8 samples.

Results

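Imprinted genes, which are expressed mainly from the maternally or the paternally inherited allele, were followed across mouse cells made to express PGC7. The 48 gene symbols were listed by knowledge of mouse imprinting, with earlier results of these data known. Members were all probe sets annotated to exactly 1 listed symbol, current or older. This gave 109 probe sets for 42 of the 48 genes, out of 34958 such probe sets for 18194 genes on the array. Of the 48 genes, 23 are known for expression from the paternal allele, 14 for expression from the maternal allele, and 11 are reported as imprinted only in some tissues, stages or transcripts. They fall into 20 imprinted domains or single genes.

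Total RNA of 8 cultures was hybridised to Affymetrix 3' expression arrays, 1 array per culture. NIH3T3 is a line of fibroblasts from mouse embryos and B16F10 a line of mouse melanoma cells; both were kept in serum and exposed to virus supernatant with polybrene. Each line gave 1 control culture. The 3 PGC7 cultures of NIH3T3 were 2 independent clones, called clone 1 and clone 2 here, and 1 culture that had not been cloned, titled pre cloning. The titles do not say whether the clones were taken from that culture, so the 3 may share 1 infected population. The 3 of B16F10 were independent clones 1 to 3. PGC7, also named Stella or Dppa3, was overexpressed from the virus according to the labels. The titles name PGC7, whereas the genotype label of the PGC7 samples reads PGC8/Stella and pre-cloned, so groups were taken from the titles. What the control cells had received, the promoter of the virus and the hybridisation dates are not given in the sources used here. A batch of arrays that followed the lines cannot be told apart from the lines. Each p-value reflects the spread among these cultures alone.

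In an imprinted domain, DNA methylation laid down in the germ line at a control region differs between the parental alleles and sets which neighbouring genes are silent on which allele. Some domains work through a long noncoding RNA: Kcnq1ot1 is transcribed from the paternal allele and is known to silence neighbouring genes in cis, and Airn does so for Igf2r. PGC7 is a maternal factor known for protecting methylated DNA, including imprints, from oxidation by TET3 after fertilisation. The comparisons asked how the RNA of imprinted genes in each line differed between PGC7 and control cells. No DNA methylation and no allele was measured here.

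The promoters of 6 genes chosen from those named in the results below are shown because methylation of CpG dinucleotides is the mark on which imprinting rests. They were taken by transcript start, and whether they overlap the control region of their domain was not determined. Each is the RefSeq window from 250 bases before to 50 bases after an annotated transcript start (build GRCm38.p6), 5′ to 3′ on the gene's strand, with every CpG in capitals. The first 3 lie on chromosome 7 in and next to the Kcnq1ot1 and Igf2 domains.
Slc22a18, chr7:143473539-143473838, plus strand: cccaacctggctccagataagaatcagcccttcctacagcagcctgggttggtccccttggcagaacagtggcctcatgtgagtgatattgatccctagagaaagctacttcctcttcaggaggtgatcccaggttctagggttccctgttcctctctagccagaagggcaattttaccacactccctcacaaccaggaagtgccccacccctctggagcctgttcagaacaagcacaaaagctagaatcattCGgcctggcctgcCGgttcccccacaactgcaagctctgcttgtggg
Kcnq1ot1, chr7:143296498-143296797, minus strand: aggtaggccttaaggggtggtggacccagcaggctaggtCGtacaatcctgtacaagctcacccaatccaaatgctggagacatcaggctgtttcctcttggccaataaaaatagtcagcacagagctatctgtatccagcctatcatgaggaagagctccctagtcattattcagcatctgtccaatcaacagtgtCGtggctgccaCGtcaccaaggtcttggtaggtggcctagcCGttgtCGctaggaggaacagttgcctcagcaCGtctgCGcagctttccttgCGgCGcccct
Igf2, chr7:142658755-142659054, minus strand, the window with the most CpG of the 4 listed for the gene: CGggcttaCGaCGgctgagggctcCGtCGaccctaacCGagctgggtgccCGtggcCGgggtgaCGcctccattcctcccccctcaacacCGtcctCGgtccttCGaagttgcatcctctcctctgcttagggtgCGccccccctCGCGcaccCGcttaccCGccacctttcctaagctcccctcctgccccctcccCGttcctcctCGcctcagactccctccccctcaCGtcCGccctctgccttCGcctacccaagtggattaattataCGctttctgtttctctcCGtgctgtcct
Peg3, chr7:6730370-6730669, minus strand: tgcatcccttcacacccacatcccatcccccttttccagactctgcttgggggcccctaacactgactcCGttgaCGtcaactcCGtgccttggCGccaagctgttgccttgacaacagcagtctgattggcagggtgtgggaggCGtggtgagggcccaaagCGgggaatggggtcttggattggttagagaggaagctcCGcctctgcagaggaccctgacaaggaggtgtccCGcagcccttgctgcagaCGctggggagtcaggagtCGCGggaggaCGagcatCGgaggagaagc
Slc38a4, chr15:97020310-97020609, minus strand, 1 of 3 listed windows: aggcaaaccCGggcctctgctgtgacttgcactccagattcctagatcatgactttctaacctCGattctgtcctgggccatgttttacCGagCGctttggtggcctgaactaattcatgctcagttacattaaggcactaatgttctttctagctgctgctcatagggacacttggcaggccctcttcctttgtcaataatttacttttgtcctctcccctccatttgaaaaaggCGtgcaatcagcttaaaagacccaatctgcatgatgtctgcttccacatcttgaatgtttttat
Mest, chr6:30737800-30738099, plus strand, 1 of 3 listed windows: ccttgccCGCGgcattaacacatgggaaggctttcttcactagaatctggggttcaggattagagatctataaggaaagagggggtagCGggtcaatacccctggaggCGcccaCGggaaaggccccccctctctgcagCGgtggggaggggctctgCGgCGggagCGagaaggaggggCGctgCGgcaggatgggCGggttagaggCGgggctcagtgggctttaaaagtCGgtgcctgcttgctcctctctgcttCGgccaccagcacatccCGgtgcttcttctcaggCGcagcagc

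The Slc22a18 window held 2 CpG, that of Slc38a4 5, Kcnq1ot1 9, Peg3 13, Mest 17 and Igf2 24. The 4 Igf2 windows held 7, 24, 14 and 2. Over 32851 RefSeq windows of the same length the median was 7, with quartiles of 3 and 20. In all, 56 windows were listed for 38 of the 48 imprinted genes, with a median of 14.5 CpG and a range of 0 (Rian) to 48 (Ppp1r9a). Of the genes called in NIH3T3 below (adjusted p under 0.05), Kcnq1 and Nap1l4 had no listed window. The windows of Airn and Inpp5f, also called there, are not shown. Mest, which is shown, was not called for a change in either line. The Peg3 window and that of its neighbour Usp29 (chr7:6730333-6730632, plus strand) overlap, since the genes are transcribed away from each other. The letters TGCCGC, the core of the motif known for the imprint-protecting zinc finger protein ZFP57, were searched on both strands, so also as GCGGCA. They were found in 12 of the 56 windows, belonging to 11 genes, which is 21.4%, and in 11.6% of all windows. Of the 6 windows shown, only that of Mest held them, with 2 matches. The match is a description of the letters in these windows.

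**Figure D1:**
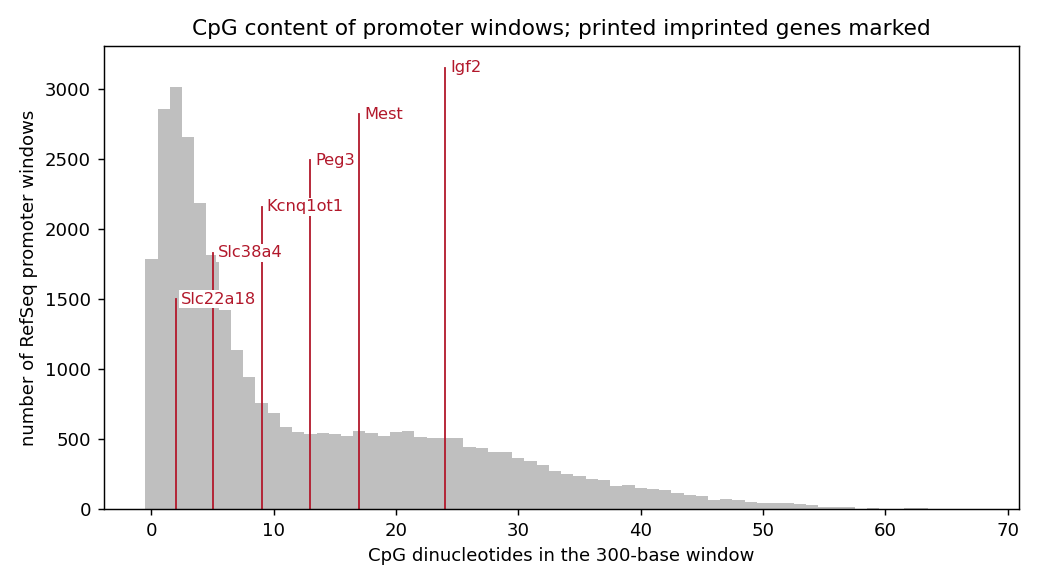
Number of CpG dinucleotides (horizontal axis) in 32851 RefSeq promoter windows of 300 bases (grey bars, number of windows on the vertical axis), with the windows of 6 imprinted genes marked by red lines whose height carries no value. Slc22a18 has 2 CpG, below the median of 7, and Igf2 has 24, above the upper quartile of 20.

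Values below are scaled array signals in arbitrary units, each array having been brought to a trimmed mean of 500. Changes are differences of log2(signal + 9), PGC7 arrays minus control, on which scale low signals show less than their full change. A gene is read by its brightest tested probe set, and levels of different probe sets are not compared. Probe sets with a mean under a signal of 49.3 in both lines were not tested. That left 29 of the 42 genes, of which 16 passed in both lines, 10 through NIH3T3 only and 3 through B16F10 only. Called means an adjusted p under 0.05 in limma's moderated test, with Benjamini-Hochberg adjustment over all 25236 tested probe sets. With 1 control array per line, the fit takes the control's spread to be that of the PGC7 cultures.

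The cultures matched the labelled lines: the summed signal of 8 melanocyte markers was 641 to 880 in NIH3T3 and 111108 to 144878 in B16F10, and that of 8 fibroblast markers was 79298 to 121188 in NIH3T3 and 601 to 911 in B16F10. Dppa3, the gene for PGC7, was not called in either line. Its probe set read 69.8 in the NIH3T3 control and 101, 29.7 and 55.4 in the uncloned culture, clone 1 and clone 2 (-0.28, adjusted p = 0.80). In B16F10 it read 23.5 in the control and 70.0, 117 and 71.0 in clones 1 to 3 (1.51, adjusted p = 0.27). All 3 B16F10 clones lay above their control, whereas the NIH3T3 cultures lay on both sides of theirs. No source used here says whether this probe set reads the viral transcript, and PGC7 arrays below are those labelled PGC7. Pearson correlations between arrays were 0.912 to 0.978 within NIH3T3, 0.970 to 0.987 within B16F10 and 0.679 to 0.698 between the lines.

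In NIH3T3, 9 of the 29 tested imprinted genes were called (31%), where 15.2% of the 11643 tested genes were. The list was chosen with earlier results of these data known, so its share carries no test of the list. Kcnq1, Slc22a18, Nap1l4, Airn and Inpp5f rose, and Igf2, Peg3, Slc38a4 and Kcnq1ot1 fell. Over all tested genes 7.87% rose and 7.35% fell. The median change of the 29 genes was 0.00024 on the log2 scale, beside -0.04 over all tested genes, with 15 positive and 14 negative values. A change of at least 2-fold in all 3 PGC7 arrays was seen for 2 imprinted genes upwards and 4 downwards (20.7%, beside 8.02% of tested genes, 4.01% in each direction). By known expressed allele, 1 of 13 tested paternally expressed genes rose and 4 fell, 2 of 6 maternally expressed genes rose, and 2 of 10 with tissue-limited imprinting rose. With no filter on signal, 7 of all 42 genes on the array were called (16.7%, beside 8.04% of genes). The direction of all 9 called genes was kept under each scaling tried. Scaling on spiked-in poly-A RNA called 6 rising and 3 falling imprinted genes, and the values as deposited 3 rising and 4 falling. Over all called probe sets, 50.6% rose, 78.2% with the spike scaling and 36.7% as deposited, as the median change of tested probe sets moved from -0.07 to 0.25 and to -0.19.

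**Figure D2:**
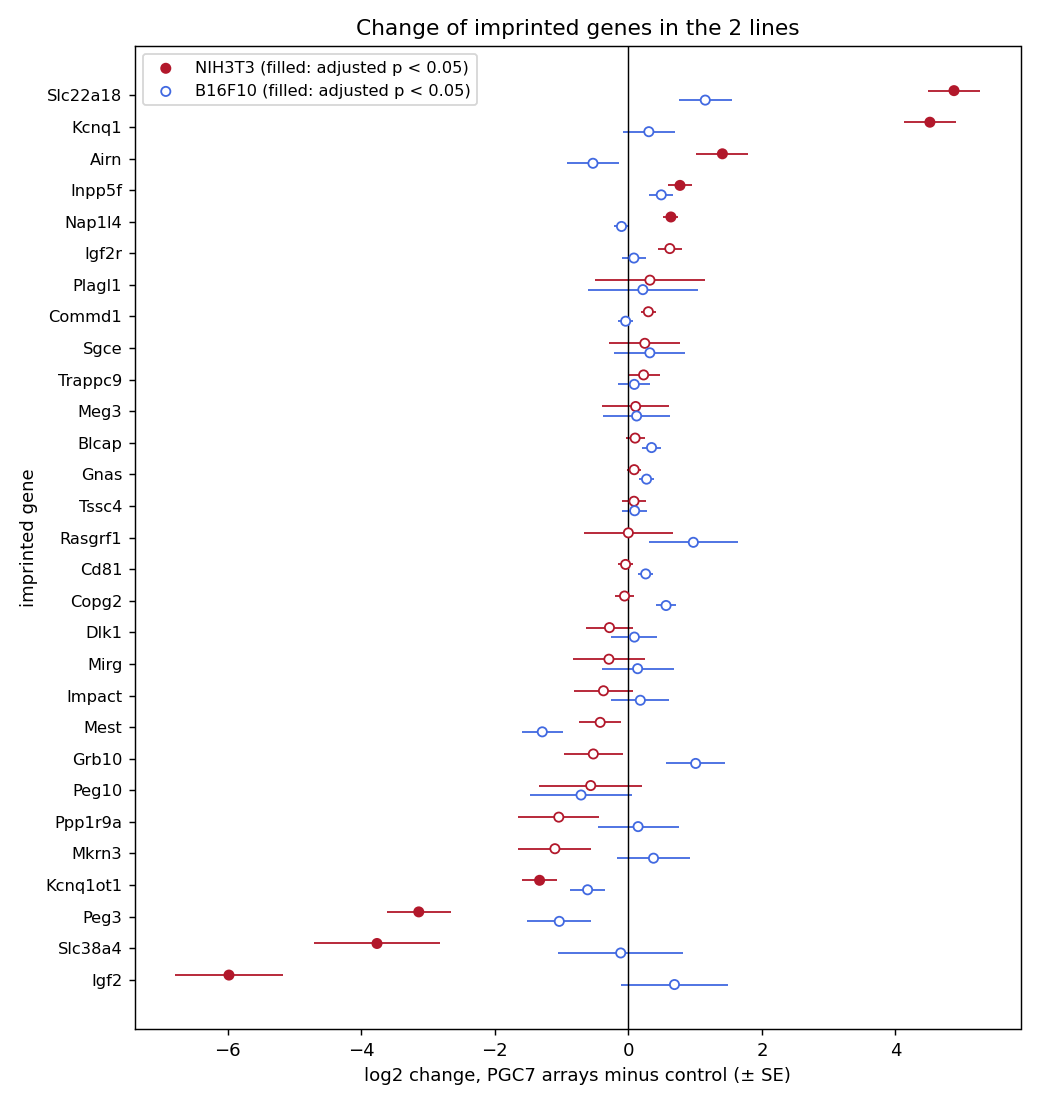
Change of the 29 tested imprinted genes (vertical axis) on the log2(signal + 9) scale, PGC7 arrays minus control (horizontal axis, points ± SE of the fit), in NIH3T3 (red) and B16F10 (blue); filled points have an adjusted p under 0.05. The 9 filled points are all NIH3T3, from -5.98 for Igf2 to 4.88 for Slc22a18, and no B16F10 point is filled.

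The Kcnq1ot1 domain held 4 of the 9 called genes. It also has the most listed genes of any domain, 9, of which 6 were tested. Of these, 3 rose and 1 fell in NIH3T3, where 7.87% and 7.35% of all tested genes did. Kcnq1, which encodes a voltage-gated potassium channel and is known as maternally expressed in the embryo, had a signal of 14.2 in the NIH3T3 control and 485, 499 and 585 in the uncloned culture, clone 1 and clone 2 (523 ± 54.3, SD, n = 3). The 3 PGC7 arrays lay close together and far above the control. The change was 4.52 ± 0.39 (SE, adjusted p = 0.000353). In B16F10 the same probe set stayed between 1.74 and 5.67 on all 4 arrays.

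Slc22a18, a maternally expressed member of an organic cation transporter family, had a signal of 1.94 in the NIH3T3 control and 327, 252 and 369 in the uncloned culture, clone 1 and clone 2. It rose by 4.88 ± 0.39 (SE, adjusted p = 0.000282). Since the control signal was far under the filter, the size depends on the pseudocount, with 6.74 at 1 and 3.34 at 32, and stayed called. A second probe set went from 14.7 to 331, 290 and 398 on the same arrays, a change of 3.87 (adjusted p = 0.0039). In B16F10 the brighter probe set read 37.0 in the control and 85.4, 73.9 and 128 in clones 1 to 3, a difference of 1.15 that was not called (adjusted p = 0.21). The second probe set there read 28.9 in the control and 71.0, 17.3 and 44.9 in the clones, so its PGC7 arrays lay on both sides of the control. Among the promoters shown above, that of Slc22a18 has the fewest CpG.

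Kcnq1ot1, the noncoding RNA of the domain, had a signal of 369 in the NIH3T3 control and 136, 168 and 124 in the uncloned culture, clone 1 and clone 2. It fell by 1.33 (SE 0.26, adjusted p = 0.0141). Its 2 other tested probe sets were also lower, by values of -1.91 (adjusted p = 0.067) and -1.76 (adjusted p = 0.11), without being called. In B16F10 the brightest probe set had a signal of 291 without PGC7, and of 189, 196 and 179 with it (clones 1 to 3). All 3 clones lay below the control there, with a difference of -0.61 (adjusted p = 0.32). The NIH3T3 call ended when only the NIH3T3 arrays were fitted (adjusted p = 0.0984) and with the spike scaling (adjusted p = 0.0764).

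Nap1l4, a histone chaperone gene at the distal side of the domain, rose from 2166 in the NIH3T3 control to 3230, 3545 and 3356 in the uncloned culture, clone 1 and clone 2. The change was small, 0.64 ± 0.11 (SE, adjusted p = 0.0089), and all 3 PGC7 arrays exceeded the control. In B16F10 its control read 3677 and its clones 3444, 3553 and 3282. The NIH3T3 call ended without the intensity trend in the variance (adjusted p = 0.0545), with NIH3T3 arrays alone (0.08) and with the values as deposited (0.0979). Cd81, a tetraspanin gene, and Tssc4, a gene between Cd81 and Kcnq1, had differences of -0.04 and 0.08 in NIH3T3 and were not called. Ascl2, Cdkn1c and Phlda2, a trophoblast transcription factor, a cell cycle inhibitor and a placental growth restrainer, were not tested: no array read them above 39.1.

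**Figure D3:**
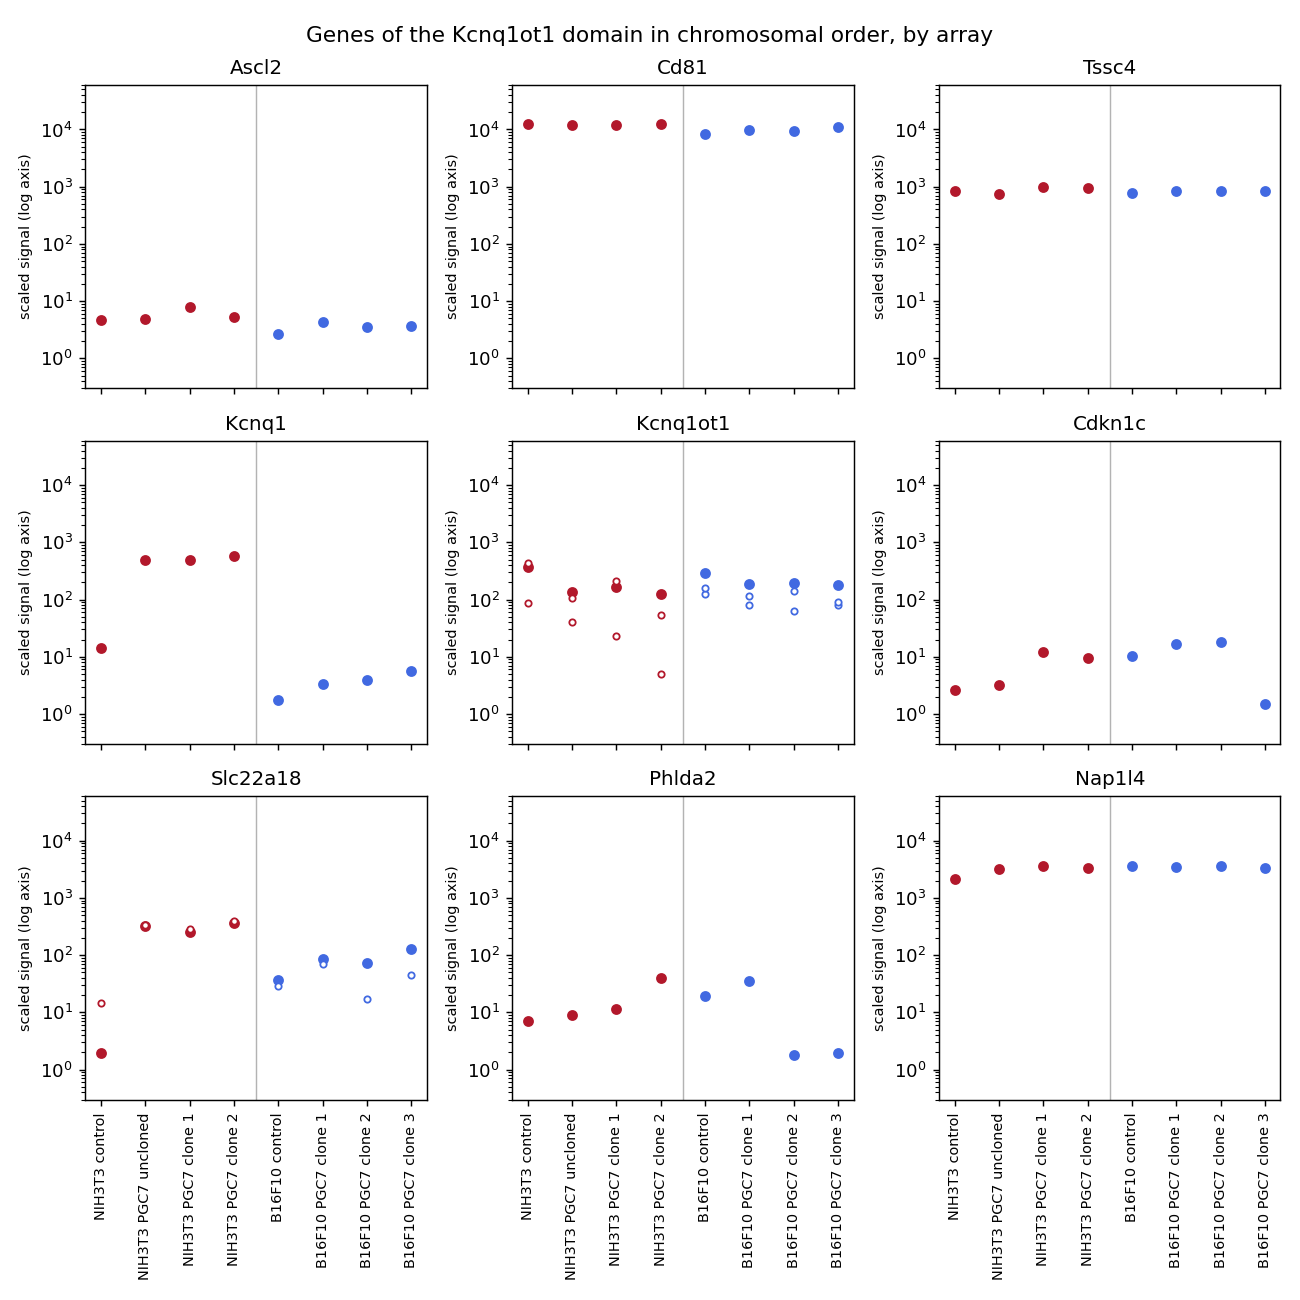
Scaled signal (vertical axes, log scale, arbitrary units) of the 9 listed genes of the Kcnq1ot1 domain on each of the 8 arrays (horizontal axes), in chromosomal order; filled points are the brightest probe set, open points other tested probe sets, red NIH3T3 and blue B16F10. Kcnq1 and Slc22a18 go from 14.2 and 1.94 in the NIH3T3 control to 485 or more and 252 or more in the PGC7 cultures, and Kcnq1ot1 goes from 369 to 168 or less.

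Other genes of the same stretch of chromosome 7, from Ascl2 to Osbpl5 in the order of the GRCm38.p6 annotation, were measured too. Of these, 6 genes outside the list were tested, and 2 rose in NIH3T3, Tnfrsf22 and Cars, where 7.87% of all tested genes rose. Tnfrsf22, a decoy receptor gene at the distal end reported as imprinted in placenta, rose from 455 to 974, 1388 and 1445 in the uncloned culture, clone 1 and clone 2 (1.44, adjusted p = 0.0087). Its neighbour Tnfrsf23 read 433 in the control and 850, 1954 and 1932 on those arrays, and was not called (1.75, adjusted p = 0.12). Cars, the cysteinyl-tRNA synthetase gene next to Nap1l4, rose in both lines, by 0.54 in NIH3T3 (adjusted p = 0.0423) and by 1.62 in B16F10 (adjusted p = 0.00262), where the control read 506 and the clones 1460, 1742 and 1530. Tspan32, Osbpl5 and R74862 had differences of 0.73 (adjusted p = 0.21), 0.27 (adjusted p = 0.72) and -0.14 (adjusted p = 0.80) in NIH3T3. The 36 nearest tested genes outside the list, 20 on the side of lower coordinates and 16 on the other, had a median change of 0.07 in NIH3T3, from -1.49 to 1.75. Kcnq1 and Slc22a18 lay outside that range. Of the 36 genes, 4 rose and 1 fell, where 7.87% and 7.35% of all tested genes did.

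Igf2 had the largest fall of the 29 genes. This paternally expressed growth factor gene had a signal of 3470 in the NIH3T3 control and 70.6, 15.9 and 75.5 in the uncloned culture, clone 1 and clone 2. Every PGC7 culture was thus far below the control. The change was -5.98 ± 0.81 (SE, adjusted p = 0.0026). Igf2os, the antisense RNA at the locus and no listed member, was below the filter and not tested; it read 185 in the control and 11.1, 21.7 and 5.83 on the same arrays. In B16F10 Igf2 stayed between 5.76 and 33.1. H19, the maternally expressed noncoding RNA that shares enhancers with Igf2, has a probe set annotated jointly with the microRNA gene Mir675 and so outside the rule, with signals of 3.69 to 35.7 on the 8 arrays. The 38 tested genes nearest to Igf2 and outside the list had a median change of 0.10 in NIH3T3. Of them 5 rose and 1 fell (7.87% and 7.35% over all tested genes). These are largely the same genes as the 36 given above for the Kcnq1ot1 domain, with the same range of -1.49 to 1.75.

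Peg3, which encodes a zinc finger protein and is expressed from the paternal allele, fell on all 3 of its tested probe sets in NIH3T3. The brightest read 2116 in the control and 177, 273 and 259 in the uncloned culture, clone 1 and clone 2 (-3.14 ± 0.48, SE, adjusted p = 0.0047). The others changed by -2.51 (adjusted p = 0.0077) and -2.40 (adjusted p = 0.0109). The call of the brightest ended with a pseudocount of 1 in place of 9 (adjusted p = 0.0703). In B16F10 Peg3 read 17.4 in the control and 0.71, 10.6 and 2.25 in clones 1 to 3. Its neighbours Zim1 and Usp29 were under the filter, at 26.5 or less on every array. None of the 40 tested genes around Peg3 rose in NIH3T3 and 1 fell (7.87% and 7.35% over all tested genes), with a median of -0.19.

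Slc38a4, a paternally expressed gene for an amino acid transporter, had a signal of 2746 in the NIH3T3 control, 686 in the uncloned culture, and 91.2 and 111 in clones 1 and 2. All PGC7 cultures were lower than the control, and the uncloned culture was intermediate. The change was -3.76 ± 0.94 (SE, adjusted p = 0.0341), and a second probe set changed by -3.71 (adjusted p = 0.0196). The call of the first was lost in 9 of 15 alternatives, among them without any single clone of either line (adjusted p = 0.0614 to 0.0756) and with NIH3T3 arrays alone (0.121). Slc38a4 was at 2.59 or less on every B16F10 array.

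Airn, the paternal noncoding RNA of the Igf2r domain, read 280 in the NIH3T3 control and 466, 943 and 989 in the uncloned culture, clone 1 and clone 2. The change was 1.41 ± 0.39 (SE, adjusted p = 0.0493). The call stood at the threshold: 9 of 15 alternatives lost it, among them leaving out any single clone of either line (adjusted p = 0.0828 to 0.103). The 3 other tested probe sets of Airn had 0.19, 0.99 and -0.76 and were not called, so its probe sets did not move together. Igf2r, which encodes the receptor that clears IGF2, read 2706 in the control and 5131, 3873 and 3640 in the same order. All PGC7 arrays exceeded the control, and the difference was 0.62 (adjusted p = 0.0595). A second Igf2r probe set rose by 0.79 (adjusted p = 0.0487). The Igf2r difference passed the threshold without clone 2 (0.72, adjusted p = 0.0469), without the uncloned culture (0.47, adjusted p = 0.0100) and with the spike scaling (0.96, adjusted p = 0.0160).

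Inpp5f, a phosphoinositide phosphatase gene with a paternally expressed transcript in brain, rose from 693 in the NIH3T3 control to 1272, 1140 and 1166 in the uncloned culture, clone 1 and clone 2. The change was 0.77 ± 0.18 (SE, adjusted p = 0.0254). Its other tested probe sets had 0.60 (adjusted p = 0.30) and 0.63 (adjusted p = 0.31). The call ended without the intensity trend (adjusted p = 0.0663), with NIH3T3 arrays alone (0.0834), as deposited (0.156) and without clone 3 of B16F10 (0.0525).

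**Figure D4:**
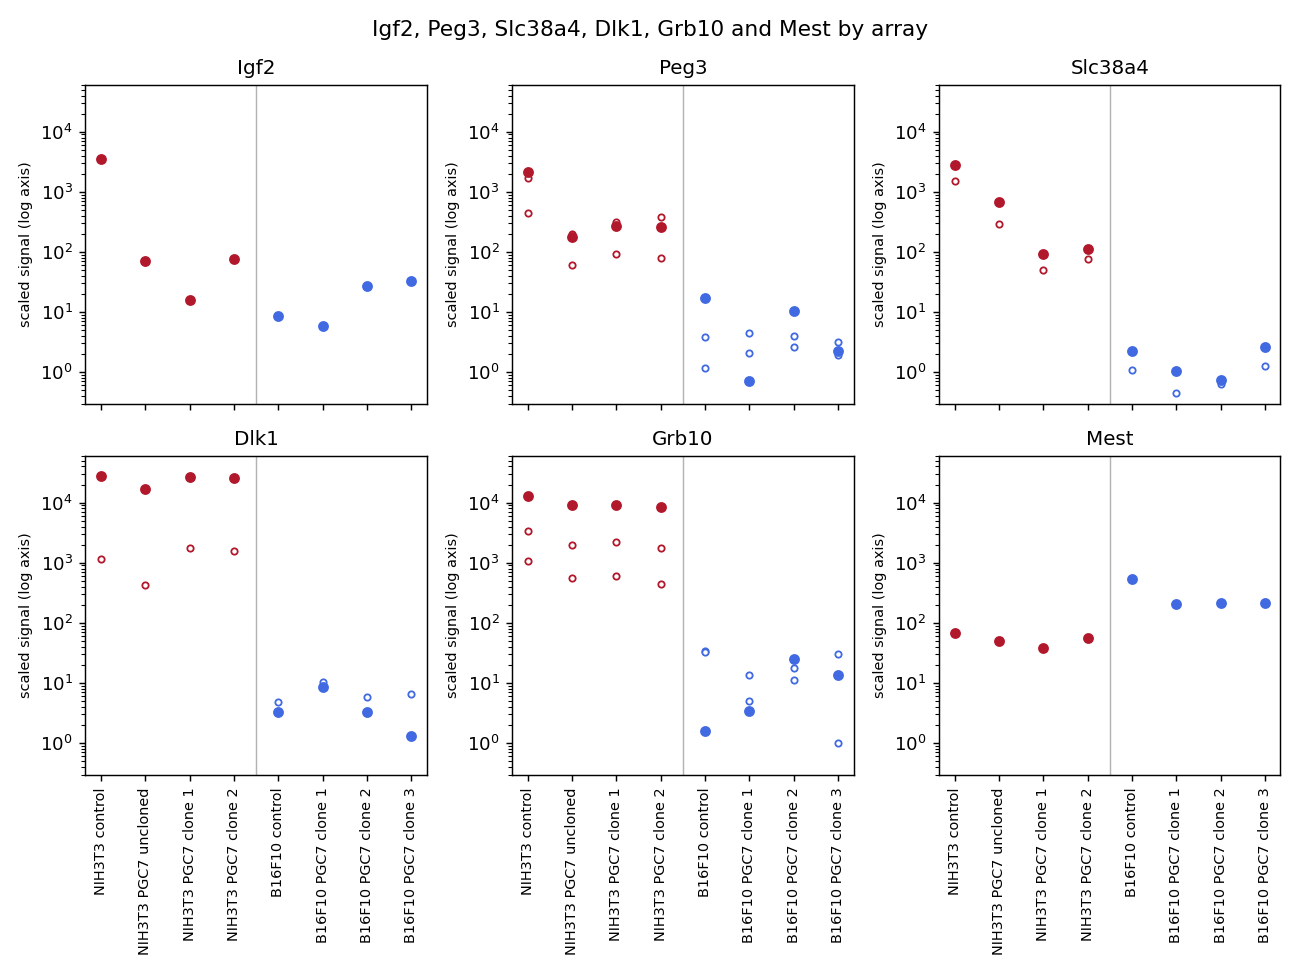
Scaled signal (vertical axes, log scale, arbitrary units) of Igf2, Peg3, Slc38a4, Dlk1, Grb10 and Mest on each of the 8 arrays (horizontal axes); filled points are the brightest probe set, open points other tested probe sets, red NIH3T3 and blue B16F10. Igf2, Peg3 and Slc38a4 are lower in every NIH3T3 PGC7 culture than in the control, Dlk1 and Grb10 are read in NIH3T3 alone, and Mest goes from 528 to 204, 218 and 211 in B16F10.

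The other 20 tested genes were not called in NIH3T3. Their differences ran from -1.10 (Mkrn3, 106 in the control and 50.5, 46.1 and 38.3 in the PGC7 cultures, adjusted p = 0.23) to 0.62 (Igf2r), and 15 of them were within 0.5 on the log2 scale. Among bright genes, Gnas, which encodes the stimulatory G protein subunit, had 0.09, Blcap 0.10, Trappc9 0.23 and Commd1 0.30. Dlk1, a NOTCH-like ligand of the fetal growth network, read 27704 in the control and 16825, 26827 and 26176 (-0.28, adjusted p = 0.64). Grb10, a maternally expressed adaptor that restrains insulin signalling, read 12903 in the control and 9295, 9295 and 8345 (-0.52, adjusted p = 0.49), and all 3 of its probe sets were lower without being called. Ppp1r9a was not called by its brightest probe set (-1.04, adjusted p = 0.30). A dimmer one went from 2.02 to 23.2, 24.8 and 40.3 and was called (1.77, adjusted p = 0.0085). Every NIH3T3 reading of that dimmer probe set lay under the filter signal. It was tested through B16F10, where it read 1057 or more, so its NIH3T3 call was taken near background.

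Snrpn has 1 probe set of its own, which stayed under the filter, and 6 annotated jointly with Snurf, with which it shares a transcript; these stand outside the rule. The brightest of them fell in NIH3T3 from 2396 to 1439, 1056 and 1276 in the uncloned culture, clone 1 and clone 2 (-0.94, adjusted p = 0.0169). Another read 294 in the control and 254 in the uncloned culture but 4.24 and 3.00 in the clones (-3.13, adjusted p = 0.21). The control and the uncloned culture were alike there, and the clones low.

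The 13 genes under the filter in both lines were Ascl2, Cdkn1c, Phlda2, Zim1, Usp29, Rian, Ndn, Snrpn, Magel2, Asb4, Nnat, Gatm and Nap1l5. Their highest signal on any array was 69.1, for Ndn in clone 2 of NIH3T3. On the log2(signal + 9) scale, 2 of them exceeded the control at least 2-fold in every PGC7 culture of a line. Usp29 read 2.56 in the NIH3T3 control and 26.5, 22.7 and 23.4 in the uncloned culture, clone 1 and clone 2. Ndn, a gene of the Prader-Willi region, read 3.66 in the B16F10 control and 25.6, 45.2 and 36.2 in clones 1 to 3. These readings all lay under the filter signal, with controls of 3.66 or less. The share of all genes under the filter that passed the same rule was not determined. No other probe set of Usp29 or Ndn passed it. Meg3, the maternal noncoding RNA next to Dlk1, has 11 probe sets, none above 105 on any array, although Dlk1 was bright in NIH3T3. H19, Rtl1, Dio3, Slc22a3, Peg13 and Zrsr1 have no probe set annotated to them alone.

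In B16F10 none of the 29 genes was called, where 1.56% of tested genes were. At an unadjusted p under 0.05 there were 7 of 29 (24.1%), beside 18% of all tested genes. The median change was 0.15, beside 0.05 over all tested genes. The lowest adjusted p was that of Mest, a paternally expressed gene for a hydrolase-like protein. Mest read 528 in the B16F10 control and 204, 218 and 211 in clones 1 to 3 (-1.29 ± 0.31, SE, adjusted p = 0.0978). Among the 29 tested genes it was the only one at least 2-fold from the control in all 3 clones (3.45%, beside 3.01% of tested genes, or 0.404% in this direction). Copg2, a coat protein gene whose end overlaps that of Mest, read 1938 in the control and 2979, 2858 and 2777 (0.56, adjusted p = 0.12). Mest and Copg2 were called when B16F10 arrays were fitted alone (adjusted p = 0.0116 and 0.0148) and without the uncloned NIH3T3 culture (0.0391 and 0.0420). Calls over all tested probe sets grew too, from 300 to 2196 and 1814 in these 2 alternatives. With the spike scaling, which moved the median change of tested B16F10 probe sets from 0.02 to -0.54, Mest (-1.87, adjusted p = 0.0166) and Kcnq1ot1 (-1.19, adjusted p = 0.0412) were called, and Copg2 turned to -0.050. Under that scaling 3198 probe sets were called over the array, 4.5% of them higher.

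The change itself differed between the lines for 4 of the 29 genes (13.8%, beside 8.93% of tested genes), 3 with the higher change in NIH3T3 and 1 with the lower, where 4.05% and 4.89% of tested genes did so. The NIH3T3 change minus the B16F10 change was -6.67 for Igf2 (SE 1.14, adjusted p = 0.0136), 4.21 for Kcnq1 (SE 0.55, adjusted p = 0.0048), 3.72 for Slc22a18 (SE 0.56, adjusted p = 0.0081) and 0.74 for Nap1l4 (SE 0.16, adjusted p = 0.0310). Igf2 and Kcnq1 passed the filter through NIH3T3 alone, with B16F10 signals at or below 33.1 and 5.67 throughout. For these 2 genes the difference therefore restates the NIH3T3 change. Among the 16 imprinted genes that passed in both lines, 2 were called, Slc22a18 and Nap1l4 (12.5%, beside 9.33% of such genes). The difference was not called for Peg3 (-2.10, adjusted p = 0.11), although it was for a dimmer Peg3 probe set (-2.51, adjusted p = 0.0453). Nor was it called for Slc38a4 (-3.65, adjusted p = 0.14), Airn (1.94, adjusted p = 0.0748), Kcnq1ot1 (-0.72, adjusted p = 0.30) or Inpp5f (0.28, adjusted p = 0.57). With line as an additive term, no imprinted gene was called across both lines, where 0.189% of tested genes were. At an unadjusted p under 0.05 that test had 6 of 29 (20.7%, beside 19.1% of genes), and its lowest adjusted p was 0.11. The Nap1l4 difference was lost in 8 of 14 alternatives, including without any single clone of either line (adjusted p = 0.0542 to 0.0912). With the spike scaling 10 imprinted genes were called for a difference between the lines, while calls over all tested probe sets went from 1737 to 6732. Over all called probe sets, 44.8% had the higher change in NIH3T3, 94.0% with the spike scaling and 29.0% as deposited.

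Imprinted genes were also compared between the lines. The level averaged over the control and PGC7 group means differed for 23 of the 29 genes (79.3%, beside 72.8% of tested genes), with 16 higher in NIH3T3 and 7 higher in B16F10, where 37.8% and 35.0% of tested genes were. For the 13 genes that passed the filter in 1 line alone, the filter itself favours a difference. Of the 16 that passed in both lines, 11 were called (68.8%, beside 69.8% of such genes). The share of imprinted genes was thus near that of all genes. Dlk1 was read at 16825 to 27704 in NIH3T3 and at 8.73 or less in B16F10, a difference of 10.95 on the log2 scale. Grb10 differed by 9.49, Slc38a4 by 6.11, Peg3 by 5.28 and Igf2 by 4.30, all higher in NIH3T3. Mkrn3 (2.82), Mirg (2.72) and Rasgrf1 (1.53) were also higher in NIH3T3, at signals of 106 or less.

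Plagl1, a zinc finger transcription factor gene, stood opposite. It was read at 14766 to 17752 in B16F10 and at 11.8 to 143 in NIH3T3 (-8.16), although its dimmer tested probe sets had -4.10, -1.61 and 0.60. The neighbours Sgce, for a sarcoglycan, Peg10, derived from a retrotransposon, and Ppp1r9a, for a neurabin, were all higher in B16F10. Sgce was read at 2150 to 2889 in B16F10 and at 25.4 or less in NIH3T3 (-7.21). Ppp1r9a differed by -4.94 and Peg10 by -1.97. Mest (-2.39), Copg2 (-0.65) and Nap1l4 (-0.39) were also higher in B16F10. Kcnq1ot1 (-0.03), Tssc4 (0.08), Commd1 (0.05), Inpp5f (0.15), Slc22a18 (-0.21) and Meg3 (0.73) were not called. Smaller differences depended on the scaling: with the values as deposited 6 of 22 called genes were higher in NIH3T3, and with the spike scaling 20 of 24. Over all called probe sets the share higher in NIH3T3 went the same way, from 58.7% to 14.3% as deposited and 78.6% with the spike scaling. Cd81, Igf2r, Airn, Gnas, Blcap, Trappc9 and Impact turned to higher in B16F10 as deposited, and Nap1l4 to higher in NIH3T3 with the spike scaling.

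**Figure D5:**
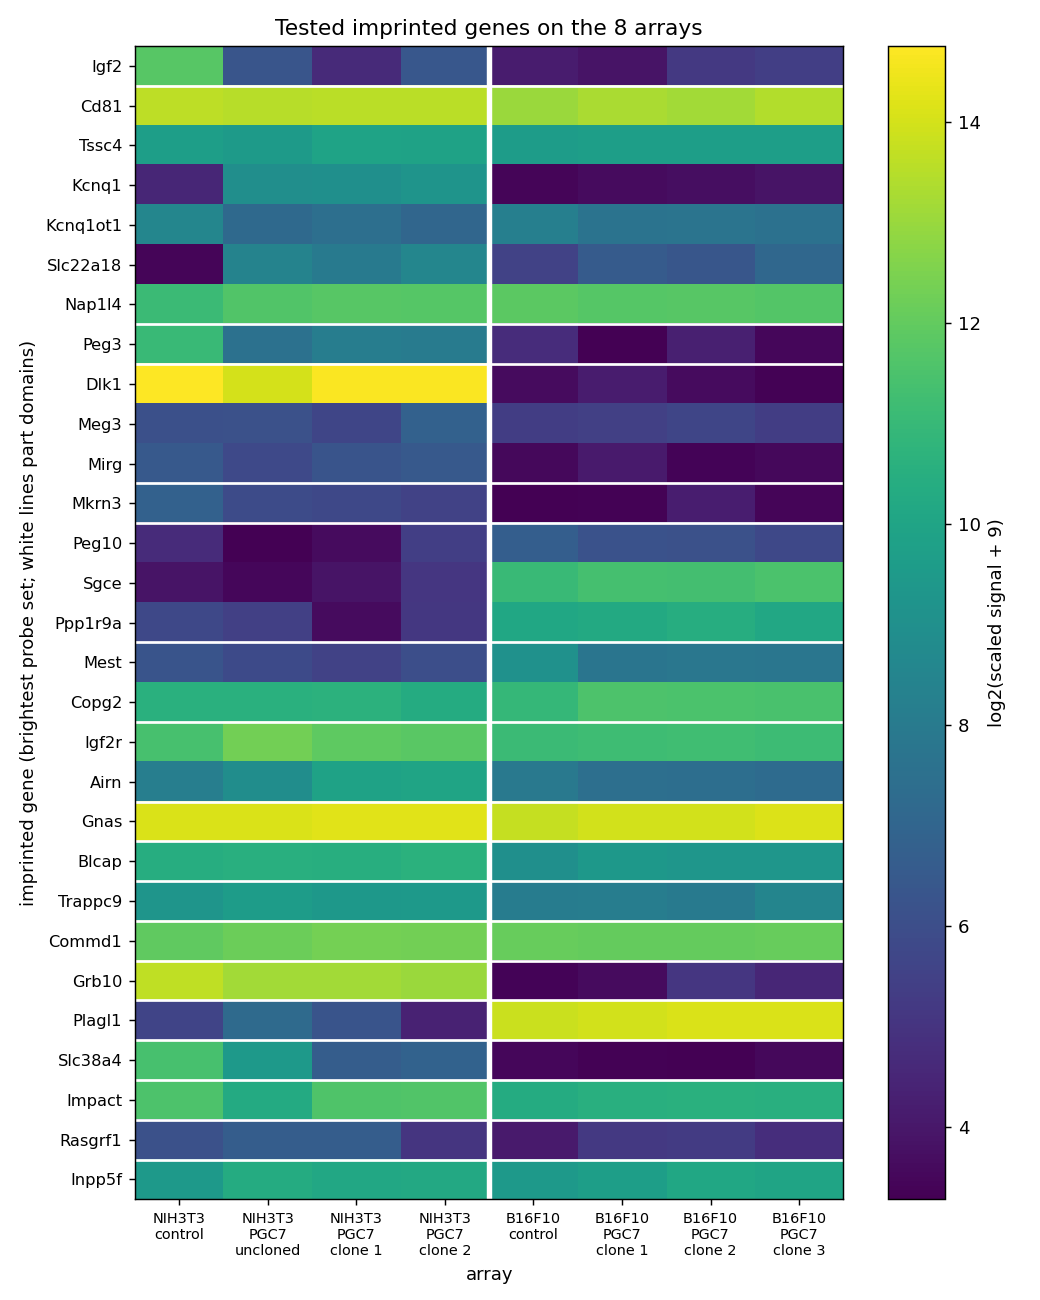
Level of the 29 tested imprinted genes (rows, brightest probe set, white lines between domains) on the 8 arrays (columns), coloured by log2(signal + 9). Dlk1 and Grb10 are bright in NIH3T3 and dark in B16F10, Plagl1 and Sgce the reverse, and Igf2 and Peg3 are bright in the NIH3T3 control alone.

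The PGC7 cultures of NIH3T3 also differed among themselves. At least 2-fold from both other PGC7 arrays, the uncloned culture was higher for Slc38a4 and Plagl1 and lower for Airn and Impact (13.8% of the 29 genes, beside 4.24% of tested genes). Impact, a paternally expressed regulator of translation, read 2980 in the control, 1257 in the uncloned culture and 3051 and 3168 in clones 1 and 2. Clone 1 was lower for Igf2 and Ppp1r9a (6.9%, beside 1.69%), at signals of 75.5 or less in the PGC7 cultures. Clone 2 was higher for Peg10 and Sgce and lower for Plagl1 and Rasgrf1 (13.8%, beside 1.55%), at signals of 143 or less. Ppp1r9a, Peg10 and Sgce passed the filter through B16F10 alone, so their NIH3T3 readings are near background. In B16F10 only Igf2 in clone 1 stood apart (3.45%, beside 1.14%), also at low signals, and none did in clones 2 and 3 (beside 1.31% and 1.37%). These counts carry no test, since each culture is 1 array.

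Of 35 further genes reported as imprinted, 31 were on the array and 19 tested. In NIH3T3 1 rose, Tnfrsf22, and 2 fell (15.8%, beside 15.2% of tested genes). Pon3, a paraoxonase gene of the Peg10 and Sgce cluster, fell from 707 to 80.4, 101 and 88.3 in the uncloned culture, clone 1 and clone 2 (-2.86, adjusted p = 0.000358). Ube3a, the ubiquitin ligase gene silenced on the paternal allele in neurons, read 4842 in the control and 3360, 3772 and 3001 on those arrays. It fell by 0.52 (adjusted p = 0.0392), a call that 9 of 15 alternatives lost, among them leaving out any clone of B16F10 (adjusted p = 0.0721 to 0.0794) and clone 2 of NIH3T3 (0.0675). None was called in B16F10. The change differed between the lines for Pon3 (-3.31, adjusted p = 0.0022), Tnfrsf22 (1.63, adjusted p = 0.0329) and Dcn (1.26, adjusted p = 0.0357), the gene of the matrix proteoglycan decorin, which is also 1 of the 8 fibroblast markers used here. Dcn read 13826 in the NIH3T3 control and 18715, 16483 and 20066 in the uncloned culture, clone 1 and clone 2, but 13.8 or less in B16F10, so its difference was taken partly at background. The Tnfrsf22 difference was lost in 6 of 14 alternatives, among them without any single clone of either line (adjusted p = 0.0603 to 0.0804). That of Dcn was lost in 8 of 14, among them without clone 1 or 3 of B16F10 and without clone 1 or 2 of NIH3T3 (adjusted p = 0.0643 to 0.0875).

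Of 24 listed factors that act on imprints or DNA methylation, among them the oxidising TET enzymes, 21 were tested. None rose in either line, and 2 fell in NIH3T3 (9.52%, beside 15.2% of tested genes called and 7.35% falling): Hells, a chromatin remodeller needed for DNA methylation, from 2815 to 1661, 1431 and 1387 in the uncloned culture, clone 1 and clone 2 (-0.92, adjusted p = 0.0035), and Zfp445, a zinc finger protein that binds imprinting control regions, from 2763 to 1902, 1950 and 1735 (-0.57, adjusted p = 0.0315). Hells missed the threshold with NIH3T3 arrays alone (adjusted p = 0.0531) and with the spike scaling (0.131), and Zfp445 in 7 of 15 alternatives, among them without clone 1 or 3 of B16F10 (0.0718 and 0.0511) and without clone 2 of NIH3T3 (0.0666). Dnmt1, the maintenance methyltransferase, had -0.11 in NIH3T3 and -0.08 in B16F10, and Uhrf1, its partner, -0.25 and -0.38. In NIH3T3 Dnmt3b had -0.76 (adjusted p = 0.090) and Ctcf -0.44 (adjusted p = 0.062). None of these was called. Of the 21 tested factors, 18 had a negative and 3 a positive change in NIH3T3, with a median of -0.28 beside -0.04 over all tested genes.

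Of 23 tested cell type markers in 4 lists, 4 were called in NIH3T3 (17.4%, beside 15.2% of tested genes). Of the 8 fibroblast markers 2 fell, Col1a1 (23293 in the control and 703, 367 and 503 in the PGC7 cultures) and Postn. The other 6 were not called: Thy1 (-1.97, adjusted p = 0.060), Pdgfrb (-0.85), Col1a2 (-0.64), Pdgfra (-0.06), Col3a1 (0.12) and Dcn (0.41). Over the 8 markers the median change was -0.74, with 6 negative and 2 positive values. The summed signal of the list went from 121188 to between 79298 and 87992. Of 8 melanocyte markers 1 fell, Tyrp1, from 46.9 to 4.32 or less. These readings all lay under the filter signal, and Tyrp1 was tested through B16F10, where it read 21806 or more. Of 6 macrophage markers, 4 were tested and 1 rose, Cd14 (1.92, adjusted p = 0.0128), with sums of 437 in the control and 859 to 1087 in the PGC7 cultures. Of the macrophage list, Ptprc read 60.6 in the control and 74.8, 231 and 175 in the uncloned culture, clone 1 and clone 2, whereas Tyrobp stayed at 30.2 or less. The sums of 5 epithelial markers lay between 157 and 415 on all arrays. In B16F10 the macrophage sum was 123 in the control and 157 to 214 in the clones, and no marker of the 4 lists was called there. The part of these shifts in the imprinted-gene changes was not tested, and fewer cells with a transcript cannot be told apart from less transcript per cell.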

How the data were processed

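One linear intensity signal per probe set and array was deposited by the authors, made with MAS5 per the submitters' processing notes, which give no settings here. The deposited B16F10 arrays shared a trimmed mean (2% cut at each end) of 500, whereas those of NIH3T3 had 143 to 189, so each array was scaled to 500. Symbols came from the platform annotation: 34958 of 45101 probe sets had 1 symbol, 932 several and 9211 none. Signals were transformed as log2(signal + 9), 9 being the rounded 25th percentile. Probe sets at or over the median of all values (49.3) by mean log2 value in at least 1 line were tested, 25236 in all, after 64 control probe sets were removed. In limma 3.58.1 (R 4.3.3), 4 group means were fitted to 8 arrays, with eBayes and an intensity trend (8.50 degrees of freedom; 9.19 with line as an additive term); all tests were two-sided. The code was tested on simulated data. The number of arrays limits the precision. A gene was read by its brightest tested probe set annotated to it alone. Members called in any comparison of change, or past 2-fold in the same direction on all 3 PGC7 arrays, are given by array, with partners of their domain; called genes of the other lists are named. The members, the lists and the tests were chosen with earlier results of these data known. Alternatives were the scaling, pseudocount, filter, variance prior, arrays in the fit, probe set and single arrays left out.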

Additional observations from a re-analysis of the deposited data

Results flagged for a closer look

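The change between PGC7 and control arrays differed between the lines, by limma's test of the difference itself, for 4 imprinted genes and 3 of the further imprinted genes. The NIH3T3 change minus the B16F10 change was -6.67 for Igf2 (adjusted p = 0.0136), lower in 3 of 3 NIH3T3 cultures and, in B16F10, higher in 2 of 3 clones at signals of 33.1 or less. It was 4.21 for Kcnq1 (adjusted p = 0.0048), whose B16F10 signals were 5.67 or less. Both genes passed the filter through NIH3T3 alone, so these differences restate the NIH3T3 change. It was 3.72 for Slc22a18 (adjusted p = 0.0081), whose controls lay under the filter signal in both lines. All 3 PGC7 cultures of both lines were above their control on its brightest probe set, though not on the second in B16F10. The difference was 0.74 for Nap1l4 (adjusted p = 0.0310), higher in 3 of 3 NIH3T3 cultures and lower in 3 of 3 B16F10 clones. Among the further genes it was -3.31 for Pon3 (adjusted p = 0.0022), 1.63 for Tnfrsf22 (adjusted p = 0.0329) and 1.26 for Dcn (adjusted p = 0.0357). For Pon3 and Tnfrsf22 all 3 PGC7 arrays lay on opposite sides of the control in the 2 lines, and Dcn was at 13.8 or less in B16F10. The call was lost in 6 of 14 alternatives for Tnfrsf22 and in 8 of 14 each for Dcn and Nap1l4.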

How the results depend on the processing

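No paired analysis was possible because the controls carry no replicate number and clone 1 of NIH3T3 and clone 1 of B16F10 are unrelated cells. Of 716 values of single genes under an alternative, over 49 results, 616 kept direction and, where tested, side of the threshold. Of the rest, 71 lost a call, 9 gained one, 9 turned and 11 without a test moved by more than the spread of the PGC7 arrays. Igf2, Kcnq1 and Slc22a18 kept their NIH3T3 call and their difference between the lines in every alternative tested. As deposited, without scaling of the NIH3T3 arrays, the level difference between the lines turned for Cd81 (-1.15), Igf2r (-0.98), Airn (-0.28), Gnas (-1.30), Blcap (-0.22), Trappc9 (-0.30) and Impact (-0.62); with the spike scaling it turned for Nap1l4 (0.087), as did the B16F10 change of Copg2 (-0.050). The cause was not tested. Probe sets called in NIH3T3 went from 3229 to 2127 without the intensity trend and to 1151 with NIH3T3 arrays alone, where 5 and 4 of the 9 imprinted genes were called; leaving out single arrays gave 2001 (without clone 1 of B16F10) to 6124 (without the uncloned culture) and 6 to 11 imprinted genes. In B16F10, 300 went to 177 without the filter, 70 without the trend, 2196 with B16F10 arrays alone, 199 with quantile normalization and 3198 with the spike scaling, and to between 59 and 1814 without single arrays; imprinted genes called went from 0 to 2 with B16F10 arrays alone and with the spike scaling, and to between 0 and 2 without single arrays. Differences between the lines went from 1737 to 934 without the trend, 6732 with the spike scaling and 1045 as deposited, and to between 739 and 4407 without single arrays; 4 imprinted genes became 10 with the spike scaling, and 3 to 6 without single arrays. Across both lines 39 became 5 without the trend, 60 with the spike scaling, 18 as deposited and 5 to 29 without single arrays. The 18047 level differences between the lines stayed within 1.5 times in every alternative. Signals near the background limit Igf2 and Kcnq1 in B16F10.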
